A study of Mus musculus with 2 samples.

Results

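The genes described here code for 9 enzymes of serine synthesis, folate one-carbon metabolism and asparagine synthesis. They were chosen by symbol, *Phgdh*, *Psat1*, *Psph*, *Shmt1*, *Shmt2*, *Mthfd1*, *Mthfd1l*, *Mthfd2* and *Asns*, out of 21878 gene symbols in the deposited tables. All 9 symbols were listed once, and all 9 passed the minimum of 20 counts summed over both libraries that a gene needed to be tested. Liver polyA RNA of FVB/N mice was sequenced after hydrodynamic injection of c-Myc, a rapid tail vein injection that carries DNA into hepatocytes. Both groups carry the injected c-Myc, and each is 1 library, 1 with no treatment (untreated, 17281523 counts) and 1 with TSA (17088227 counts). The labels state no age, sex, dose, duration, vehicle, promoter driving c-Myc or number of animals per library, nor whether tumour or whole liver was taken. With 1 library per group no difference has a replicate check, and every 95% interval in parentheses covers counting error only.

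Cells make serine from a glycolytic intermediate in successive steps catalysed by the products of *Phgdh*, *Psat1* and *Psph*. Serine hydroxymethyltransferases then move a carbon of serine onto tetrahydrofolate and release glycine, in the cytosol through SHMT1 and in mitochondria through SHMT2. The carbon is oxidised or reduced on folate by MTHFD1 in the cytosol and by MTHFD2 in mitochondria, where MTHFD1L releases it as formate. It is used for purines, thymidylate and methyl groups. Asparagine synthetase (ASNS) makes asparagine from aspartate and glutamine. *Phgdh*, *Psat1*, *Shmt2*, *Mthfd2* and *Asns* are known targets of ATF4, the transcription factor of the amino acid response, and several of these enzymes are known to be raised in proliferating cells.

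The 9 genes divided into 6 that were lower in the TSA library and 3 that were not called. *Phgdh*, *Psat1*, *Psph*, *Mthfd1l*, *Mthfd2* and *Asns* were lower, by 6.95-fold to 182-fold, while *Shmt1*, *Shmt2* and *Mthfd1* stayed within 1.33-fold of the untreated level. A gene was called lower or higher at a ratio of at least 2, TSA over untreated after TMM scaling of library sizes, with an interval that excludes 1. By this rule 6 of 9 were lower and 0 higher, where 27.4% of the 13027 genes tested were lower and 26.0% higher. A level at least 10-fold lower was found for 5 of the 9, against 5.50% of all genes tested. The median log2 ratio of the 9 was -5.25, beside -0.11 for all genes. With total counts in place of TMM, which moves every log2 ratio down by 0.85, 8 of 9 were lower and 0 higher, with 48.7% of all genes lower and 16.0% higher.

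**Figure D1:**
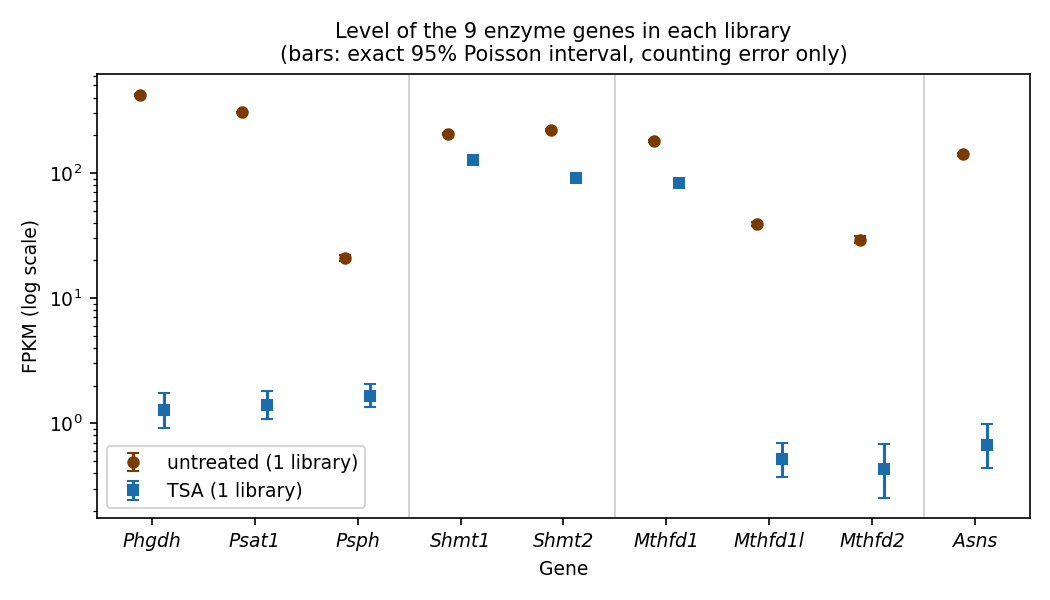
FPKM of the 9 enzyme genes (log axis) in the untreated library (circles) and the TSA library (squares), with exact 95% Poisson intervals that cover counting error only. *Shmt1*, *Shmt2* and *Mthfd1* lie between 83.3 and 219 FPKM in both libraries, and the other 6 genes lie between 0.429 and 1.66 FPKM with TSA.

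*Phgdh* and *Psat1* were the most abundant genes of the set without treatment, and all 3 serine synthesis genes were lower with TSA. FPKM here is the deposited level, counts per length of the gene model and per library total, so that levels can be compared between genes. *Phgdh*, for phosphoglycerate dehydrogenase, the first and committed step, had 13651 counts (422 FPKM, 415 to 429) in the untreated library and 41 counts (1.28 FPKM, 0.920 to 1.74) in the TSA library. The difference was 182-fold (134 to 254) lower, and 23 of the 13027 genes tested had a smaller ratio. Its FPKM ranked 146 among all symbols without treatment and 9493 with TSA, where 14958 genes had at least 1 count. Sequence similar to *Phgdh* is common in the mouse genome. At an identity of at least 90% over at least 200 bases, 19 other genes of GENCODE M21, 17 of them pseudogenes, matched its transcript. None of the 19 is among the deposited symbols. No source used here says how reads with several matches were handled, so the level of *Phgdh* is uncertain to that extent.

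*Psat1*, for phosphoserine aminotransferase, the next step, had 13092 counts (304 FPKM, 299 to 309) untreated and 60 counts (1.41 FPKM, 1.08 to 1.81) with TSA. It was lower by 119.6-fold (92.8 to 157), and 54 genes had a smaller ratio. *Psph*, for the phosphatase that releases serine, was the least abundant of the set in the untreated library, at 1142 counts (20.9 FPKM, 19.7 to 22.1), and had 90 counts (1.66 FPKM, 1.34 to 2.04) with TSA. It was 6.95-fold (5.61 to 8.72) lower, the smallest difference among the 6 lower genes. *Psph* shares 452 exonic bases with *Cct6a*, a chaperonin subunit gene on the opposite strand in GENCODE M21. *Cct6a* had 11579 counts untreated and 1682 with TSA, a log2 ratio of -1.92. Without a stated strand setting, reads of the shared bases may belong to either gene.

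The levels of the 3 serine synthesis genes were far apart without treatment and close together with TSA. The highest of them stood 20.2-fold above the lowest by FPKM in the untreated library and 1.30-fold in the TSA library. The FPKM ratio of *Psph* to *Phgdh* was 0.0494 (0.0465 to 0.0525) untreated and 1.30 (0.896 to 1.88) with TSA, a 26.2-fold (18.1 to 38.2) shift. The ratio of *Psat1* to *Phgdh* moved less, from 0.720 (0.703 to 0.738) to 1.10 (0.739 to 1.64), or 1.53-fold (1.03 to 2.27). Such ratios within a library do not depend on how the libraries were scaled to each other. Those with *Psph* carry the uncertainty of the bases it shares with *Cct6a*, and with TSA the 3 genes had only 41 to 90 counts.

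Both serine hydroxymethyltransferase genes remained abundant. *Shmt1*, for the cytosolic enzyme, had 7892 counts (204 FPKM, 199.8 to 209) untreated and 4846 counts (127 FPKM, 123 to 131) with TSA. After TMM scaling this was 1.12 (1.08 to 1.16) of the untreated level, and with total counts 0.621 of it, so the direction depended on the scaling and neither value passed the call. *Shmt2*, for the mitochondrial enzyme, had 8727 counts (219 FPKM, 215 to 224) untreated and 3609 counts (91.6 FPKM, 88.7 to 94.7) with TSA. It stood 1.33-fold (1.27 to 1.38) below the untreated level, which was not called, and 2.39-fold lower with total counts, which was. The balance between the isozymes tipped: *Shmt2* over *Shmt1* was 1.07 (1.04 to 1.11) by FPKM without treatment and 0.722 (0.692 to 0.754) with TSA, a 1.48-fold (1.41 to 1.57) shift toward the cytosolic isozyme. Exons of *Shmt1* overlap those of *Smcr8* by 184 bases on the opposite strand, and those of *Shmt2* overlap *Ndufa4l2* by 32 bases.

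Among the folate interconversion genes the cytosolic and mitochondrial enzymes parted. *Mthfd1*, for the cytosolic trifunctional enzyme, had 10413 counts (181 FPKM, 178 to 185) untreated and 4731 counts (83.3 FPKM, 80.9 to 85.7) with TSA. It lay 1.21-fold (1.17 to 1.25) below the untreated level with TMM, which was not called, and was 2.18-fold lower with total counts. *Mthfd1l*, for the mitochondrial formate-releasing synthetase, had 3242 counts (39.3 FPKM, 38.0 to 40.7) untreated and 42 counts (0.515 FPKM, 0.371 to 0.696) with TSA, 42.3-fold (31.2 to 58.8) lower. *Mthfd2*, for the mitochondrial dehydrogenase and cyclohydrolase that is low in most adult tissues, had 1247 counts (29.4 FPKM, 27.8 to 31.0) untreated and 18 counts (0.429 FPKM, 0.254 to 0.678) with TSA, 38.0-fold (23.9 to 64.3) lower. Relative to *Mthfd1* within each library, *Mthfd1l* went from 0.217 (0.208 to 0.226) to 0.00618 (0.00456 to 0.00838), and *Mthfd2* from 0.162 (0.153 to 0.172) to 0.00515 (0.00324 to 0.00818). These shifts of 35.1-fold (25.8 to 47.6) and 31.5-fold (19.7 to 50.2) do not rest on the scaling.

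*Asns* had 5514 counts (141 FPKM, 137 to 145) in the untreated library and 26 counts (0.673 FPKM, 0.440 to 0.986) in the TSA library. This is a level 116-fold (79.2 to 178) lower, and 59 genes had a smaller ratio. Its FPKM rank went from 487 to 10597.

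**Figure D2:**
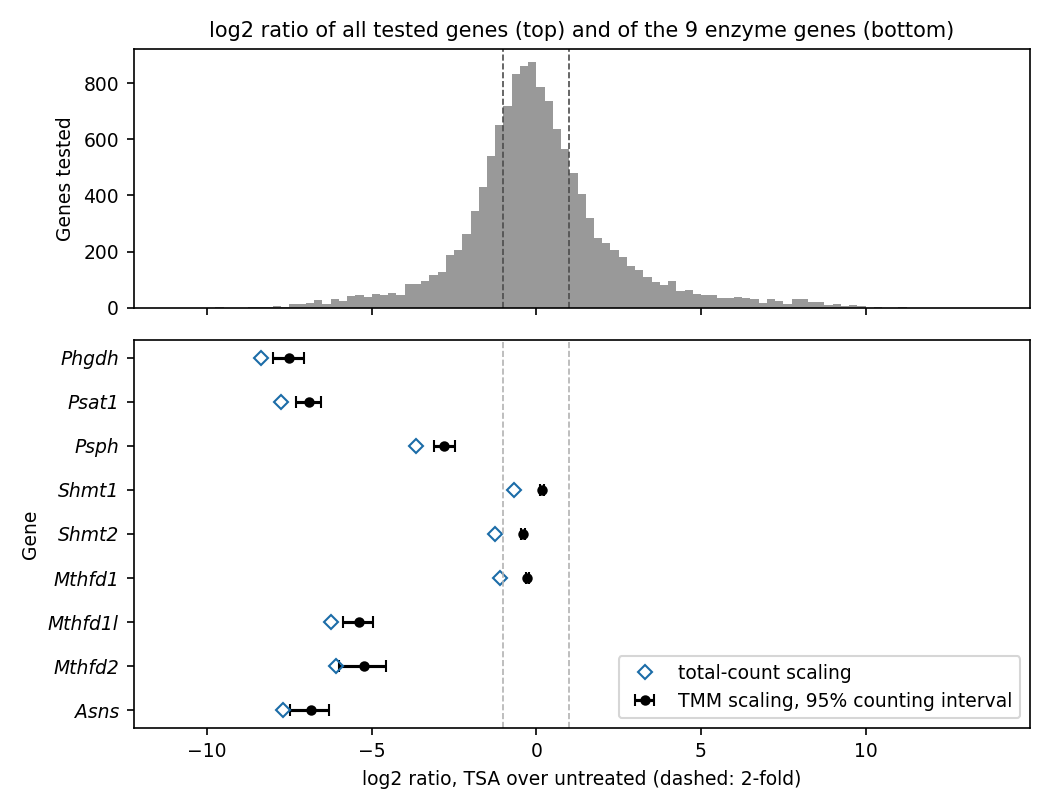
Top, histogram of the log2 ratio, TSA over untreated, of the 13027 genes tested after TMM scaling. Bottom, the same ratio for each enzyme gene (dots, 95% counting interval) and its value with total counts (diamonds), with dashed lines at 2-fold; *Shmt1*, *Shmt2* and *Mthfd1* lie near 0 with TMM, and the other 6 lie between -7.51 and -2.80.

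As a set the 9 genes took 0.376% (0.373 to 0.379, exact binomial) of all counts untreated and 0.0788% (0.0775 to 0.0801) with TSA. Their makeup also differed. The serine synthesis genes gave 47.8% of the summed FPKM of the 9 without treatment, *Phgdh* alone 27%, and 1.41% with TSA. *Shmt1*, *Shmt2* and *Mthfd1* together gave 38.7% untreated and 98.1% with TSA.

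The promoters of the genes are shown because *Phgdh*, *Psat1* and *Asns* had the smallest ratios, TSA over untreated, of the 9, while *Shmt1*, shown beside them, was not called. By level in the TSA library *Mthfd2* and *Mthfd1l* were lower than these. All 9 genes matched the RefSeq promoter table of build GRCm38.p6 by symbol, *Psat1* with 2 start sites and the others with 1. Each line gives the 250 bases before a start site, 5′ to 3′ on the strand of the gene, with matches to the motifs named below in capitals. The windows are chr3:98339970-98340219 (minus strand) for *Phgdh*, chr19:15925060-15925309 (minus strand) for the upstream start of *Psat1*, chr6:7693210-7693459 (minus strand) for *Asns* and chr11:60811266-60811515 (minus strand) for *Shmt1*.
Phgdh: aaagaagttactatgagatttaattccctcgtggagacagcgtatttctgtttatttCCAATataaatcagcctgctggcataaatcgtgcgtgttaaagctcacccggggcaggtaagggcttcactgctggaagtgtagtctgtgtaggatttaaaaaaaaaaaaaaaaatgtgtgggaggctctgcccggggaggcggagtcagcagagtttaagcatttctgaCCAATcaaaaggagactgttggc
Psat1: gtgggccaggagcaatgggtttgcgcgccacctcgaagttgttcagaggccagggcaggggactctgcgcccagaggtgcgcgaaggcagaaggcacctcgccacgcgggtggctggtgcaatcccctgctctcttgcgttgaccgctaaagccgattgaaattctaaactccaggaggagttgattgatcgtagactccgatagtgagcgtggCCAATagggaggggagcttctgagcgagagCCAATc
Asns: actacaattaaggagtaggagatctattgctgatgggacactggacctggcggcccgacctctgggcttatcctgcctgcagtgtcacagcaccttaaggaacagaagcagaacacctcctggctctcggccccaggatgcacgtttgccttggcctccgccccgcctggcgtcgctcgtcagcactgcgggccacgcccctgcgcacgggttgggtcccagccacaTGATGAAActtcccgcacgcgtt
Shmt1: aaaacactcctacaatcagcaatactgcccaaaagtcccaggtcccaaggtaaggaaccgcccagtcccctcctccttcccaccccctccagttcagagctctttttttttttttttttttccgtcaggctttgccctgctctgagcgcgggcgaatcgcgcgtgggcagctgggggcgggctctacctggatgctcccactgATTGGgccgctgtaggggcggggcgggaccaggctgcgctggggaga

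The motif TGATGNAA, the core of the C/EBP-ATF response element through which ATF4 acts, was searched on both strands from 250 bases before to 50 bases after each start. It was found in *Asns*, as TGATGAAA starting 23 bases before the start site, and in no other window of the 9 genes, where 3.97% of the 32851 windows in the table hold it. The E-box CACGTG, which MYC with MAX can bind, was in 0 of the 10 windows, against 7.15% of all windows. The CCAAT box (CCAAT or its reverse complement ATTGG), added after the sequences were seen, was in 6 of the 10 windows, against 37.4% of all. It occurred in *Phgdh*, *Psat1*, *Psph* and *Mthfd2*, which were lower, and also in *Shmt1* and *Mthfd1*, which were not called. No window held matches to more than 1 of these motifs, so no matches overlap between motifs, and a match is a description of the sequence only.

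Other genes of folate metabolism were called in both directions. Of 19 tested, 8 were higher, 7 lower and 4 neither with TMM, where 26.0% of all genes were higher and 27.4% lower. With total counts 4 were higher and 10 lower, near the 16.0% and 48.7% of all genes. Their median log2 ratio was -0.37 with TMM. *Aldh1l1*, for the cytosolic enzyme that oxidises formyl-tetrahydrofolate to carbon dioxide and is abundant in adult liver, had 337 counts (6.21 FPKM) untreated and 26796 counts (499.6 FPKM) with TSA, and was 145-fold (130.3 to 162) higher. *Ftcd*, for the enzyme that feeds histidine carbon into the folate pool, was 3.60-fold (3.45 to 3.76) higher with TMM, and at 1.99-fold, which was not called, with total counts. *Atic*, for the last steps of purine synthesis, which spend folate carbon, was 5.96-fold (5.49 to 6.49) lower. Other genes of enzymes that spend folate carbon on nucleotides, named after their values were seen, were *Tyms*, for thymidylate synthase, at 6.29-fold (5.23 to 7.62) lower and *Gart*, of purine synthesis, at 3.64-fold (3.37 to 3.93) lower. *Slc19a1*, for the reduced folate carrier, was 13.4-fold (10.96 to 16.6) lower. *Folr1*, for folate receptor alpha, had 209 counts untreated against 2, and was 57.3-fold (15.7 to 476) lower with TSA.

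Each of *Mthfd1*, *Mthfd2* and *Mthfd1l* was lower relative to its partner among these genes in the TSA library. *Mthfd1* over *Aldh1l1*, which use the same cytosolic formyl-folate pool, was 29.2 (26.2 to 32.5) by FPKM untreated and 0.167 (0.162 to 0.172) with TSA, a 175-fold (156 to 196) shift. The mitochondrial relatives *Aldh1l2* and *Mthfd2l* were scarce in both libraries, at 24 and 8 counts untreated and 10 and 21 with TSA. *Mthfd2* over *Mthfd2l*, a close isozyme, went from 148 (73.7 to 296) to 0.812 (0.433 to 1.52), so that the levels of the isozymes with TSA could not be told apart at this depth. *Mthfd1l* over *Aldh1l2* went from 171 (114 to 255) to 5.31 (2.66 to 10.6).

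**Figure D3:**
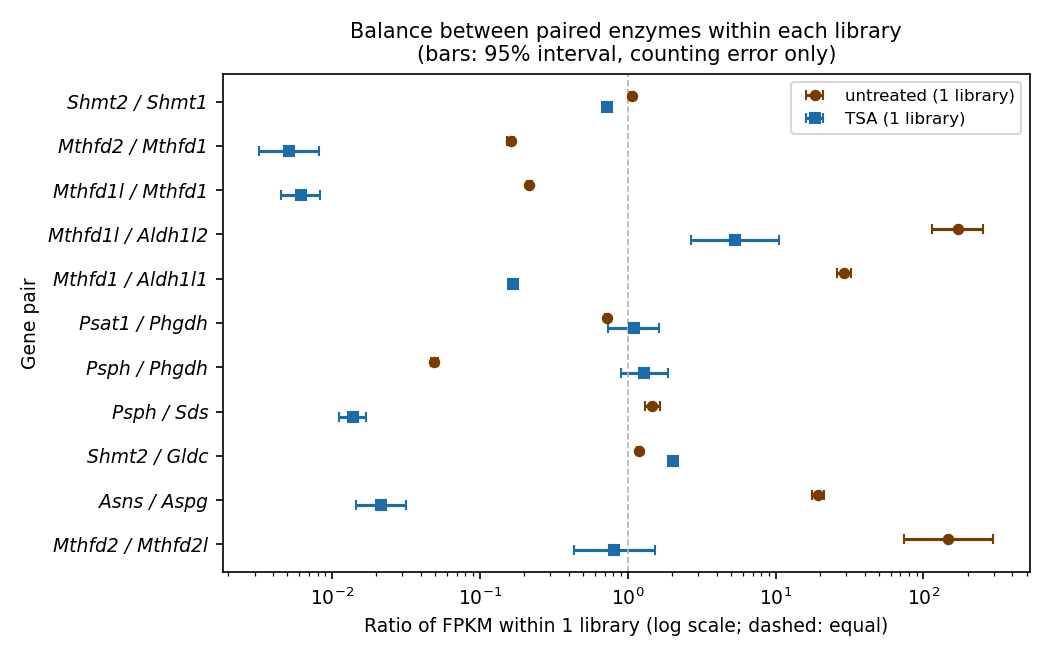
FPKM of each gene divided by that of its partner within 1 library (log axis), untreated as circles and TSA as squares, with 95% counting intervals and a dashed line at equal levels. The ratio *Asns* / *Aspg* lies at 19.3 untreated and 0.0215 with TSA, while *Shmt2* / *Shmt1* lies at 1.07 untreated and 0.722 with TSA.

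Of 13 genes tested that break down, form or import serine, glycine and related compounds, TMM gave 6 higher and 1 lower, beside 26.0% and 27.4% of all genes. With total counts 6 were higher and 5 lower, against 16.0% and 48.7% of all genes. *Sds*, for the serine dehydratase of gluconeogenic liver, had 360 counts (14.2 FPKM) untreated and 3020 (120.2 FPKM) with TSA, 15.3-fold (13.7 to 17.1) higher. *Gnmt*, for glycine N-methyltransferase, was 40.05-fold (37.5 to 42.8) higher, *Agxt*, for the peroxisomal enzyme that makes glycine from glyoxylate, 38.0-fold (32.7 to 44.5) higher, and *Sardh*, for sarcosine dehydrogenase, 6.24-fold (6.06 to 6.43) higher. *Gldc*, for the decarboxylase of the glycine cleavage system, was the lower gene with TMM, at 2.24-fold (2.15 to 2.34). With libraries scaled to 11 reference genes this call was lost and 0 genes of the list were lower. *Psph* over *Sds*, the last step of synthesis over the first of breakdown, was 1.47 (1.31 to 1.66) untreated and 0.0138 (0.0112 to 0.0171) with TSA, a 106-fold (83.7 to 135) shift. *Shmt2* over *Gldc* moved the other way, from 1.19 (1.16 to 1.22) to 2.02 (1.92 to 2.12).

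Of 11 genes for asparagine, aspartate, glutamine and glutamate handling, 6 were higher and 1 lower with TMM, where 26.0% of all genes were higher and 27.4% lower. With total counts 3 were higher and 3 lower, where the shares of all genes were 16.0% and 48.7%, so the balance toward higher depended on the scaling. *Aspg*, for an asparaginase, had 517 counts (7.29 FPKM) untreated and 2198 (31.4 FPKM) with TSA, 7.76-fold (7.05 to 8.56) higher. *Asns* over *Aspg* by FPKM was 19.3 (17.7 to 21.2) untreated and 0.0215 (0.0146 to 0.0316) with TSA, which is a 902-fold (606 to 1341) shift and the largest among the 11 pairs compared. *Glul*, for glutamine synthetase, was 6.89-fold (6.67 to 7.13) higher and *Glud1*, for glutamate dehydrogenase, 2.99-fold (2.92 to 3.05) higher with TMM; with total counts *Glud1* was at 1.66-fold and not called. *Got2*, for mitochondrial aspartate aminotransferase, lay at 0.898 (0.876 to 0.921) of the untreated level and was not called.

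Of 22 other targets of ATF4 and the amino acid response that were tested, 7 were higher and 8 lower with TMM, and 4 were higher and 10 lower with total counts. These counts lie near the shares of all genes, 26.0% and 27.4% with TMM and 16.0% and 48.7% with total counts. The median log2 ratio was 0.24 with TMM. *Slc7a1*, for a cationic amino acid transporter, was 48.8-fold (37.7 to 64.3) lower, *Aldh18a1*, for the first enzyme of proline synthesis, 44.3-fold (33.5 to 59.8) lower and *Slc7a5*, for the large neutral amino acid transporter LAT1, 16.8-fold (14.1 to 20.1) lower. In the other direction *Slc38a2*, for a neutral amino acid transporter, was 3.20-fold (3.10 to 3.30) higher, though only 1.77-fold with total counts. *Aars*, for alanyl-tRNA synthetase, was 3.59-fold (3.42 to 3.77) higher, though only 1.99-fold with total counts. *Vldlr* and *Fgf21*, named after their values were seen, were 16.0-fold (11.75 to 22.3) and 76.65-fold (13.0 to 3099) higher. *Fgf21* had only 1 count untreated and 42 with TSA. With TMM 4 genes of this list were at least 10-fold lower, beside 5.50% of all genes tested, and 2 at least 10-fold higher. *Gars*, for glycyl-tRNA synthetase, was 3.97-fold (3.70 to 4.26) lower. *Atf4* itself, named after its value was seen, had 1931 counts (60.5 FPKM) untreated and 1258 (39.9 FPKM) with TSA, a ratio of 1.19 (1.11 to 1.28), which was not called. ATF4 is mainly controlled at translation, which transcript counts do not measure. The stress genes *Chac1*, *Trib3* and *Ddit3*, also named after their values were seen, had 13, 44 and 68 counts untreated and 51, 44 and 83 with TSA. With TMM *Chac1* was 7.16-fold (3.84 to 14.35) and *Ddit3* 2.23-fold (1.60 to 3.12) higher. *Trib3*, at 1.825-fold (1.17 to 2.84), was not called. With total counts *Chac1* was 3.97-fold higher, and *Trib3* and *Ddit3*, at 1.01-fold and 1.23-fold, were not called.

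**Figure D4:**
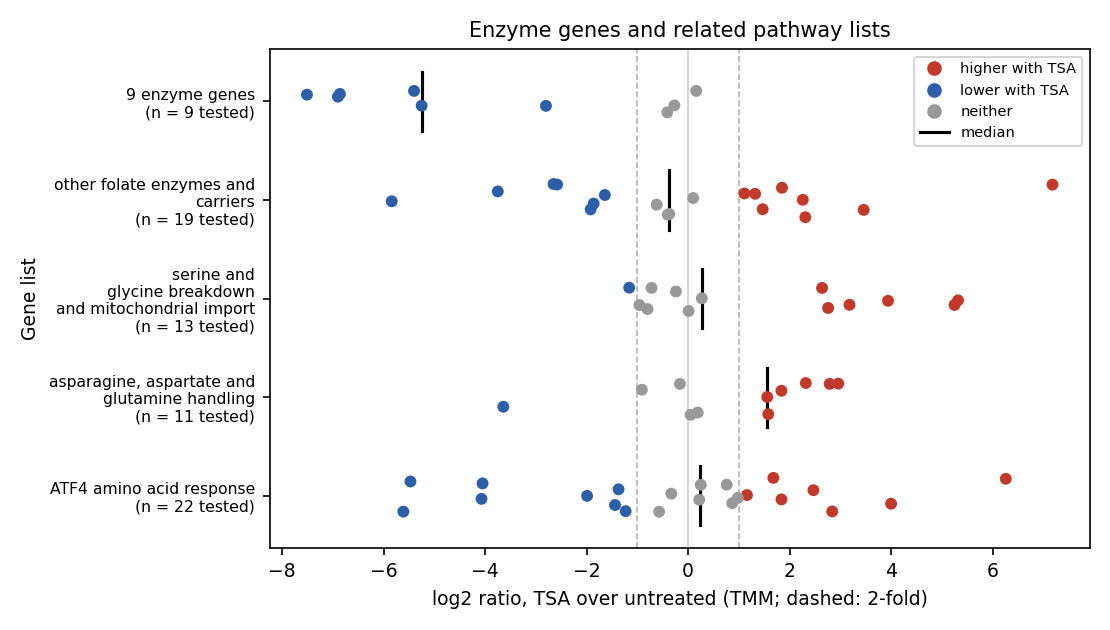
Each dot is 1 tested gene at its log2 ratio, TSA over untreated after TMM scaling, for the 9 enzyme genes and 4 related lists; red is higher, blue lower and grey neither by the 2-fold rule (dashed lines), and the black bar is the list's median. The median of the 9 enzyme genes is at -5.25 and those of the other lists lie between -0.37 and 1.56.

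Marker genes of cell state and cell type differed between the same libraries. The counts below stand beside 26.0% of all genes tested higher and 27.4% lower with TMM. With total counts these shares were 16.0% and 48.7%. All 12 mature hepatocyte markers were higher with TSA, from 6784 to 171092 summed CPM after TMM scaling, and each was detected in both libraries. All 10 proliferation markers were lower, from 2169 to 92.1 summed CPM, with a median log2 ratio of -5.62. Of 8 fetal liver and liver tumour markers tested 7 were lower, from 10132 to 129 summed CPM over 9 listed, with *Dlk1*, *Lin28b* and *Igf2bp1* at 0 with TSA and *Hmga2* at 0 untreated. Endothelial markers were higher in 9 of 10 cases (133 to 775 summed CPM) and erythroid markers in 5 of 5 tested (70.2 to 355). Of 10 macrophage markers 5 were higher and 1 lower (571.5 to 794), and of 10 stellate and fibroblast markers 5 were higher and 2 lower (438 to 622). Of 6 lymphocyte markers tested 3 were higher and 0 lower (24.9 to 40.1), and of 6 cholangiocyte markers tested 3 were higher and 2 lower (78.8 to 76.7). With total counts 3 macrophage markers were higher and 4 lower, 4 stellate and fibroblast markers higher and 4 lower, 2 cholangiocyte markers higher and 3 lower, 3 lymphocyte markers higher and 1 lower, and 7 endothelial markers higher, so the balance in the first 3 of these lists depended on the scaling. Both neutrophil markers with enough counts were higher (1.42 to 6.45 over 7 listed). *Cftr* and *Hba-a2* were at 0 with TSA, *Elane* at 0 untreated and *Ly6g* at 0 in both. The part of these shifts in the levels of the 9 enzyme genes was not tested, and in such bulk samples fewer cells of a type and less RNA per cell cannot be told apart.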

How the data were processed

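PolyA RNA of mouse liver was sequenced in 2 libraries, 1 per group. The deposited counts are whole, unscaled reads per gene symbol, per the file headers. The FPKM values the authors deposited equal counts over gene model length and library total, with a length that matched within 0.1 base between libraries for all 14271 genes counted in both. The submitters' processing notes name Trimmomatic, HISAT2, Bowtie2 and DESeq. Their roles and the build, annotation and counting: not given in the sources used here.

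Library sizes of the whole table were scaled with edgeR 4.0.16 (R 4.3.3) by TMM, on the premise that the bulk of genes is equal (factors 1.34 untreated, 0.744 TSA). After this scaling 26.0% of the genes tested were still called higher and 27.4% lower, so the premise is not assured here. With 1 library per group no p-value is given. Ratio intervals are exact conditional binomial (Clopper-Pearson), those of a single FPKM exact Poisson, and those of gene pairs log-normal from the counts. A group at 0 was given 3 counts. Reads are not independent molecules.

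The members and lists were chosen with earlier results of these data known. Named are the 9 enzymes, their partners in 11 pairs and, per pathway list, the 3 most counted and 3 most different genes among those with at least 50 counts. Exceptions are stated, and a gene that this rule selects is not reported here. Likeness of pattern over 2 libraries is only likeness of ratio, so no gene is named for it. Similar transcripts were found with blastn 2.17.0.

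On simulated counts for TSA against untreated, 13012 genes were tested. The calls found 96 of 99 genes set to a 3-fold change and 98 of 98 set to 8-fold. They took in 21 of 12815 left unchanged. The simulation held Poisson counting error only, with few genes changed, equally up and down. It therefore does not measure false calls from variation between animals, or where as many genes differ as here. Alternatives were DESeq2 1.42.0 size factors, upper quartile, total counts, 11 reference genes, FPKM with 0.1 or 1 added, count minimums, a prior of 2 counts, other thresholds and thinned libraries.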

Additional observations from a re-analysis of the deposited data

How the results depend on the processing

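The 6 lower enzyme genes remained lower at 2-fold under every scaling, pseudocount, prior count and depth tried, with folds of 103 to 329 for *Phgdh*, 70.2 to 216 for *Psat1*, 4.55 to 12.6 for *Psph*, 14.7 to 76.3 for *Mthfd1l*, 11.8 to 68.5 for *Mthfd2* and 47.1 to 210 for *Asns*. The lowest values came with 1 added to FPKM and the highest with total counts. *Shmt1* changed direction with total counts (log2 ratio -0.69), and *Mthfd1* with the 11 reference genes (0.07, with every log2 ratio moved up by 0.34). Counts of all genes higher were 2084 with total counts and 1951 at 4-fold, and of all genes lower 6339 with total counts, 2266 with 1 added to FPKM and 1640 at 4-fold. Of the 65 pathway list genes tested 27 were higher and 17 lower; this became 17 and 28 with total counts and 17 and 9 at 4-fold. The changes with total counts follow from the shift of 0.85 that the scaling makes. The shift of *Psat1* over *Phgdh* (log2 0.61) was 1.05 with both libraries thinned, where its interval no longer excluded 0 because fewer counts remained. The other 32 alternatives for the gene pairs kept direction. They also kept the side of the interval, but with 0.1 added to FPKM the main interval was reused, so its side could not change there. No paired analysis was possible because each group has 1 library, and for the same reason no replicate could be left out. At 18 to 90 counts in the TSA library, the levels of the 6 lower genes there are known only to within the intervals given.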
